A study of Mus musculus with 12 samples.

Results

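The genes described here are 36 genes of DNA replication, chosen by symbol from the machinery that licenses origins, runs the replication fork, supplies nucleotides and rebuilds chromatin behind the fork. They were all found, each on 1 line, among the 45796 genes of the deposited table. The RNA was that of Vg4+Vd4+ gamma delta T cells from skin-draining lymph nodes, all from the C57BL/6 strain. The 12 libraries formed 4 groups of 3: wild-type mice under sham cream, wild-type mice under imiquimod cream, NF-kB1-deficient mice under sham cream and NF-kB1-deficient mice under imiquimod cream. Painted on mouse skin, imiquimod stimulates Toll-like receptors and causes inflammation. NF-kB1 is one of the subunits from which NF-kB transcription factors are built. The labels give no age, sex, treatment time or number of animals, and do not say which part of the NF-kB1 gene is altered.

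Replication starts when the loading factors Cdc6 and Cdt1 place the ring of Mcm2 to Mcm7 on DNA before S phase, and Cdc45 with the GINS complex turn that ring into a running helicase. Polymerases copy both strands on the sliding clamp Pcna, and many of these genes are transcribed together at the G1 to S transition under E2F transcription factors. Resting T cells keep most of them low and raise them when they divide.

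The 12 libraries were shallow, with an estimated 20507 to 69454 reads on genes each, and 1 read was worth 0.488 to 1.98 on the linear scale of normalized read counts used below. The table holds no value of 1 or less, so a gene listed at 0 may still have had 1 read (or 2 in wild-type sham replicate 2) in 5 of the libraries, those with a read worth under 1. The receptor delta locus Tcrd was above 0 in all 12 libraries (14.2 to 76.8), Cd4 and all 10 B cell markers were listed at 0 throughout, and the locus of the receptor beta chain, Tcrb, was at 57.4 to 103. Of the other alpha beta T cell markers, Tcra was above 0 in 11 libraries (up to 14.2), Cd8b1 in 8 (up to 17.3) and Cd8a in 3 (up to 2.6). Trac, Trbc1, Trbc2 and Foxp3 were listed at 0 in all 12. Trdv4, Tcrg-V4 and the cytokine gene Il17a were listed at 0 in all 12 libraries, so the receptor chains of the label could not be checked by these symbols. In wild-type imiquimod libraries Tcrd fell against sham, from 65.8, 68.6 and 76.8 to 14.2, 30.5 and 19.8 (limma adjusted p = 0.00905). The receptor gamma chain gene Tcrg-C2 did not follow. It read 12.3, 22.3 and 18.8 with imiquimod cream, beside 10.5, 17.0 and 28.3 with sham cream (limma log2 fold change 0.0073, adjusted p = 0.997). Cd3d read 0, 0 and 21.8 with imiquimod cream, beside 8.05, 21.15 and 17.4 with sham cream (limma log2 fold change -2.45, adjusted p = 0.154). Cd247 gave -0.72 (0.797) and Maf 0.10 (0.969), and Cd3d, Cd247 and Maf overlapped between these groups. Of the 5 gamma delta T and T cell identity genes tested, 3 had a negative fold change and 2 a positive one. Only Tcrd had an adjusted p under 0.05. Whether the share of gamma delta T cells changed was not tested.

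Promoter sequence was examined because members of this machinery are known to share E2F control. RefSeq windows on GRCm38.p6, from 250 bases before to 50 bases after an annotated start, were on hand for 31 of the 36 genes (39 windows). An E2F-type motif (TTTCCCGC, TTTCGCGC, TTTGCCGC or TTTGGCGC, on either strand) was present in 13 of these 31 genes (41.9%) and in 2.6% of the 27025 genes with a window. By window the share was 13 of 39, against 2.26% of all 32851 windows. The windows were not matched for base composition. The shorter CCAAT box (CCAAT on either strand) stood in 20 of the 31 genes (64.5%) and in 41.1% of all genes, and the kB-type motif (GGG, any 2 bases, then TTTCC, either strand) in 0 of 31 and in 1.89% of all genes. Matches of 1 motif on opposite strands can share bases, as E2F-type pairs do in Mcm5 and Mcm6 and CCAAT boxes in Dnmt1 and Uhrf1. Printed here are the 250 bases before an annotated start, 5′ to 3′ on the strand of the gene. They come from the helicase genes Mcm6, Mcm5 and Mcm7, the chromatin remodeller gene Hells and the DNA methyltransferase gene Dnmt1 (1 of its windows). They are shown because these are the 5 members tested below that have a match in that stretch, and capitals mark the E2F-type matches.

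Mcm6 (chr1:128359706-128359955, minus strand): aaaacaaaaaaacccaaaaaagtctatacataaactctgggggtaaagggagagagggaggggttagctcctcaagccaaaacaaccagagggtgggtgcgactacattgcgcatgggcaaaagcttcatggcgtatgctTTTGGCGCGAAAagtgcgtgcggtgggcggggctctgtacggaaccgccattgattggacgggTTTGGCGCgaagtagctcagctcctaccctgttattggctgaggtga

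Mcm5 (chr8:75109259-75109508, plus strand): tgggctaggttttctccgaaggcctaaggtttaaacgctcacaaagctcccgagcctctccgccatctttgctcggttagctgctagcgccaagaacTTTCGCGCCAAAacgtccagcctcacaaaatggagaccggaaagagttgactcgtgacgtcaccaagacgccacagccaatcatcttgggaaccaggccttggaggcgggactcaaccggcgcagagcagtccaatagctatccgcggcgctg

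Mcm7 (chr5:138171884-138172133, minus strand): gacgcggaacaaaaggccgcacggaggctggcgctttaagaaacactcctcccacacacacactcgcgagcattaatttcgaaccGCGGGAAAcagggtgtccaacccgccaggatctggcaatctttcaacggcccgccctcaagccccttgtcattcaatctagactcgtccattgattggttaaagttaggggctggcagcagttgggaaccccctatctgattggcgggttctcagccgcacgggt

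Hells (chr19:38930740-38930989, plus strand): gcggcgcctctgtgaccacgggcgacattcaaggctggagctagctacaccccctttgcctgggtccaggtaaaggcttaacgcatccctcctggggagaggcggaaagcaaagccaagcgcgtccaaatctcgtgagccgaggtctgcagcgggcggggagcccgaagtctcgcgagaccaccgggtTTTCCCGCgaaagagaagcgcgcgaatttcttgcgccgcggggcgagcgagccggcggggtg

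Dnmt1 (chr9:20952624-20952873, minus strand): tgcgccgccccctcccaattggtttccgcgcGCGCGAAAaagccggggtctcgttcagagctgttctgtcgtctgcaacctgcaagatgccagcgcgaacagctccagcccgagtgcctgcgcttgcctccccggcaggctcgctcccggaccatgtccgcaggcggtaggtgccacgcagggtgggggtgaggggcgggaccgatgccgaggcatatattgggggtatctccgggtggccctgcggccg

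Mcm6 holds 3 matches, which begin 110, 106 and 47 bases before the start, and the first pair overlaps to give TTTGGCGCGAAA. In Mcm5 a pair of overlapping matches begins 153 and 149 bases before the start. Mcm7 has 1 match at 165 bases before the start (and another 17 bases after it, outside the stretch shown), and Hells 1 at 62 bases before. The Dnmt1 window has 1 match at 219 bases before its start and another 34 bases after it. Of the other members tested below, Mcm3, Lig1 and Cdt1 have matches only after the start, and Pcna and Dut have none in these windows. A match is a run of letters and says nothing about binding in these cells.

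Summed over the 36 genes, the normalized value came to 395, 186 and 325 in wild-type imiquimod and to 85.3, 29.4 and 27.3 in wild-type sham. It was 36.05, 54.5 and 105 in NF-kB1-deficient sham and 132, 37.3 and 108 in NF-kB1-deficient imiquimod. The 3 wild-type imiquimod libraries thus lay above the other 9, which overlapped among themselves. The group means were 302 ± 106 for wild-type imiquimod, 47.4 ± 32.9 for wild-type sham, 65.3 ± 35.9 for NF-kB1-deficient sham and 92.5 ± 49.4 for NF-kB1-deficient imiquimod (SD, n = 3 each). Imiquimod over sham gave a ratio of means of 6.37 in wild-type and 1.42 in NF-kB1-deficient cells, and under imiquimod the wild-type mean was 3.26 times the NF-kB1-deficient mean. No p is given for these sums, since the genes were chosen as a set with earlier results of these data known. Without wild-type sham replicate 1, where Rpa2 alone gave 21.2 of the 85.3, the wild-type ratio was 10.6.

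**Figure D1:**
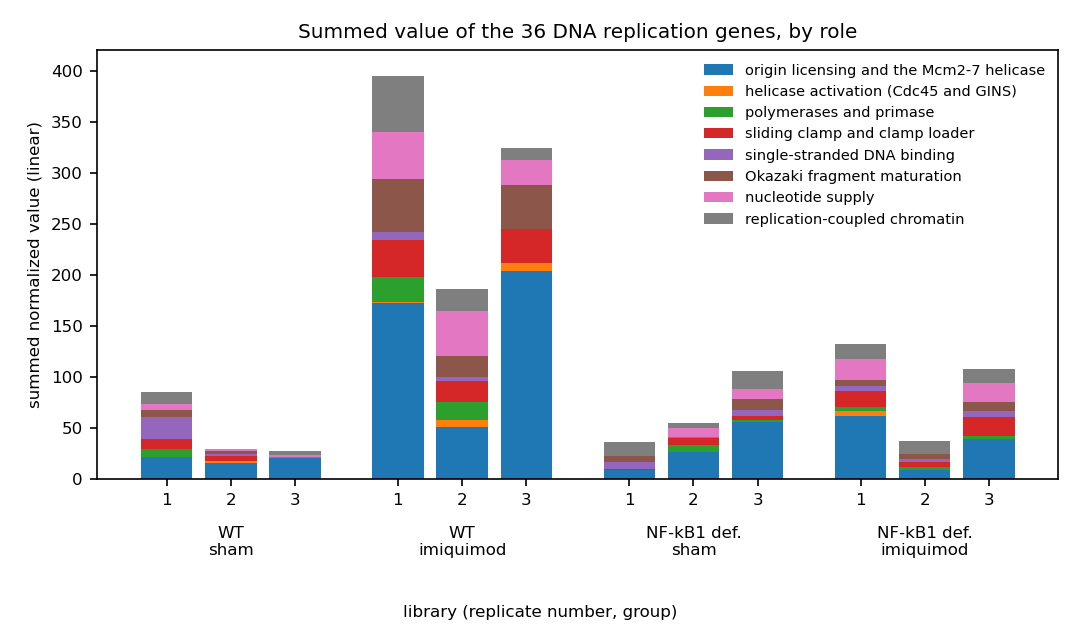
Stacked bars show the summed normalized value (linear scale) of the 36 genes in each library, split by role, with libraries ordered by group and replicate number. The wild-type imiquimod bars reach 186 to 395 and the other 9 reach 27.3 to 132, and licensing and helicase genes form the largest block in each wild-type imiquimod library.

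These sums rest on few reads: an estimated 164 to 377 in the wild-type imiquimod libraries, 22.0 to 76.3 in wild-type sham, 49.0 to 83.8 in NF-kB1-deficient sham and 53.4 to 264 in NF-kB1-deficient imiquimod. The NF-kB1-deficient imiquimod libraries were deeper (45957 to 67043 reads) than the wild-type imiquimod libraries (20507 to 35611). The share of each library's summed value taken by the 36 genes was 0.496% to 1.07% in wild-type imiquimod and 0.0787% to 0.394% in the other 9. In bulk RNA of this kind, a change in the number of cells in S phase and a change in RNA per cell cannot be told apart.

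Of the 36 genes, 4 (Gins1, Tyms, Pole and Chaf1b) were listed at 0 in all 12 libraries. Of the other 32, 22 had their highest group mean in wild-type imiquimod (68.8%), against 27.6% of the 9732 genes above 0 anywhere. Among these 32 the mean was higher in wild-type imiquimod than in wild-type sham for 23 and lower for 5, where 39.3% and 41.3% of all 9732 genes were higher and lower. In NF-kB1-deficient cells the imiquimod mean was higher for 18 and lower for 10, where all genes gave 46.5% and 40.4%. In wild-type cells 8 of these 32 genes (25%) had all imiquimod values above all sham values, against 2.61% of the 9732 genes. They were Mcm3, Mcm4, Mcm7, Cdc45, Pcna, Lig1, Dut and Hells. Below all sham values lay 1 gene, Rpa1 (3.12%, against 3.58%). Of these 8, all but Cdc45 are among the 1571 genes tested below, where 10.7% were higher in this way and 10.8% lower. The Rpa1 groups were apart only by the worth of a read, with an estimated 1 read in wild-type imiquimod replicate 1 and in wild-type sham replicates 1 and 3. By presence, 15 members were above 0 in all 3 wild-type imiquimod libraries, 9 in all NF-kB1-deficient imiquimod libraries, and 3 in each sham group. Presence also depends on depth and on the worth of a read, and the same count over all genes was not made. Per library, 2724 to 3543 genes were above 0 in wild-type imiquimod and 3651 to 5182 in NF-kB1-deficient imiquimod. In sham libraries these were 3025 to 4808 (wild type) and 2888 to 3838 (NF-kB1 deficient).

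**Figure D2:**
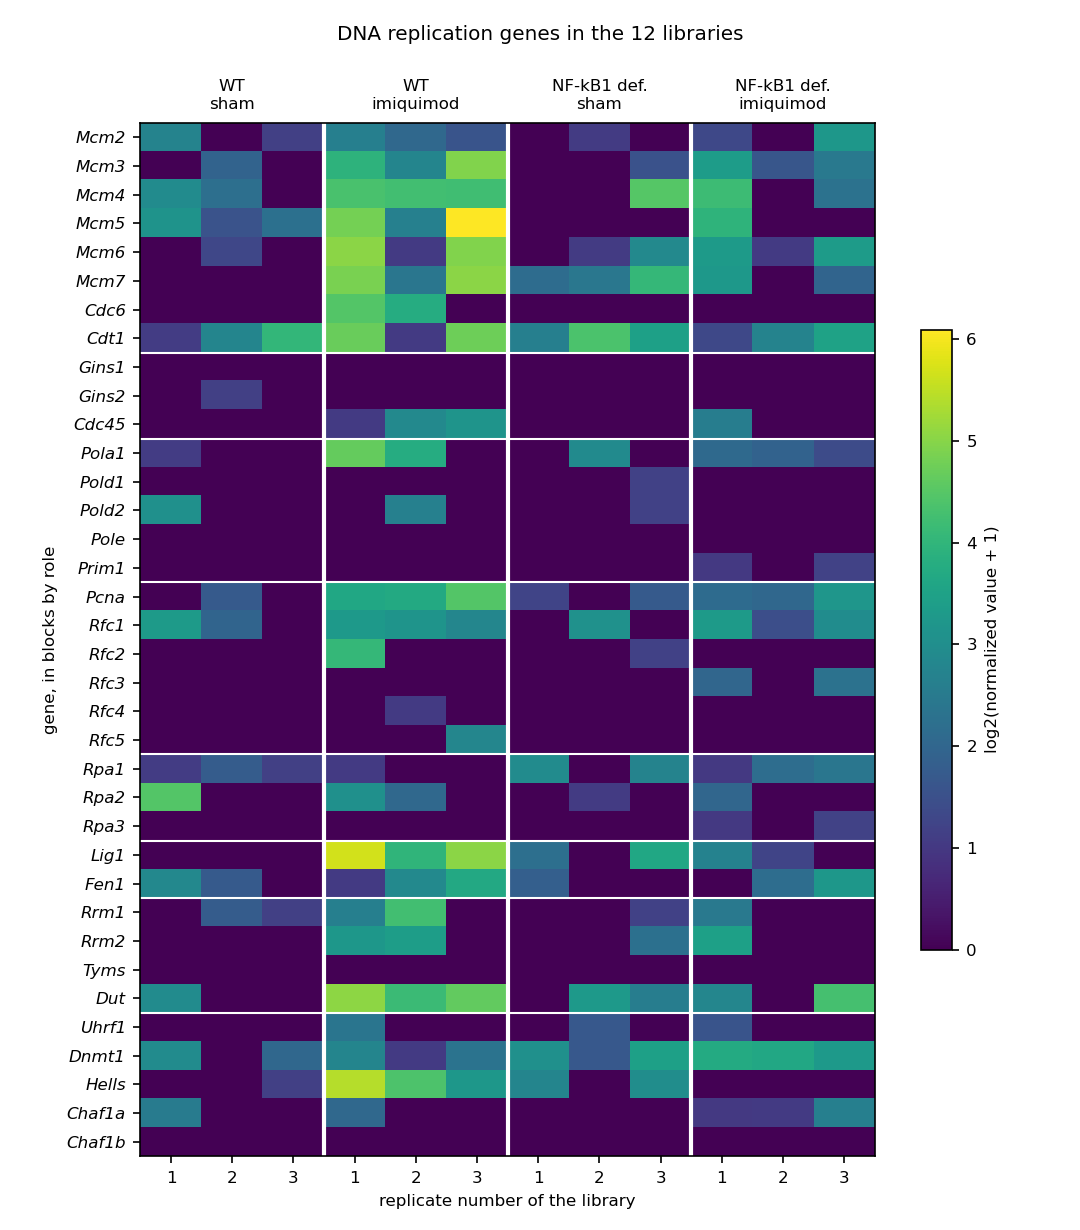
Each row is 1 of the 36 genes in blocks by role, each column 1 library, and colour gives log2(normalized value + 1). The 3 wild-type imiquimod columns hold values above 0 for 24, 22 and 16 of the genes, and the brightest cell is Mcm5 in wild-type imiquimod replicate 3 (67.3 on the linear scale).

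Tests were made with limma on log2(normalized value + 1) for the 1571 genes whose mean over the 12 libraries was at least 5, with Benjamini-Hochberg adjustment over all of them. This filter kept 11 of the 36 genes: Mcm3, Mcm4, Mcm5, Mcm6, Mcm7, Cdt1, Pcna, Lig1, Dut, Dnmt1 and Hells. Pcna (mean 5.43) was the lowest gene inside it and Rfc1 (4.97) the highest outside. Of the 11, 7 passed only through their values in wild-type imiquimod and would have been under 5 without those libraries, so a count over the 11 in a comparison with that group is a description only. Mcm4, Dut, Dnmt1 and Cdt1 passed on the other 9 libraries as well. Among the 11, imiquimod against sham in wild-type cells called 2 genes at an adjusted p under 0.05, Lig1 and Mcm7, where 3.25% of all tested genes were called. An unadjusted p under 0.05 was reached by 8 of them and by 19.9% of all tested genes. Over 20 other settings Lig1 was called in 17 and Mcm7 in 6.

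The Okazaki fragment ligase and the helicase subunit that were called were both at 0 in each wild-type sham library. Lig1 (Entrez 16881; GRCm38 chromosome 7, 13277175 to 13311426), which seals nicks between Okazaki fragments, was at 50.3, 14.7 and 31.7 in wild-type imiquimod. NF-kB1-deficient cells gave 3.68, 0 and 11.3 under sham and 5.51, 1.40 and 0 under imiquimod. All 3 wild-type imiquimod values lay above the 9 others. Lig1 was called higher under imiquimod in wild-type cells (limma adjusted p = 0.0145), and no fold is given against a group listed at 0. It passed the filter only through those libraries, and with no filter it was not called (0.0524). Nor was it called without wild-type imiquimod replicate 1 (0.0835) or with a pseudocount of 0.1 (0.0696). Fen1, the flap nuclease of the same step, was under the filter, at 1.05, 6.32 and 11.9 in wild-type imiquimod and at 6.15, 2.32 and 0 in wild-type sham, so its groups overlapped.

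Mcm7 (Entrez 17220; chromosome 5, 138164583 to 138172111), a subunit of the replicative helicase, was at 28.3, 4.21 and 31.7 in wild-type imiquimod. NF-kB1-deficient sham libraries had 3.43, 4.38 and 15.7, and treated ones 8.51, 0 and 2.92. Mcm7 was called higher under imiquimod in wild-type cells (limma adjusted p = 0.0423), but it too passed the filter only through those libraries, and with no filter it was not called (0.224). It was also not called when any 1 wild-type sham library was left out (0.0831 to 0.0989) or without wild-type imiquimod replicate 1 (0.162) or 3 (0.153). Its last bases overlap Cops6 on the opposite strand in the GENCODE M21 annotation, and whether the counting used strand is not given in the sources used here. Without NF-kB1-deficient sham replicate 3 (0.0547) or NF-kB1-deficient imiquimod replicate 1 (0.0670) or 3 (0.0506), which enter only through the shared spread, it was not called either.

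The other helicase subunits were higher on average in wild-type imiquimod and not called. Mcm4 (chromosome 16, 15623897 to 15637400) was at 19.4, 17.9 and 17.8 in wild-type imiquimod and at 6.71, 3.66 and 0 in wild-type sham, which gave a log2 fold change of 2.55 ± 1.205 (SE, by limma with an adjusted p = 0.203). These 2 groups did not overlap, and the imiquimod libraries had the smallest spread of any group for this gene (SD 0.884). Mcm4 in NF-kB1-deficient cells read 0, 0 and 21.4 under sham and 17.0, 0 and 3.89 under imiquimod, so 1 library in each group carried most of the signal.

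Mcm3 (chromosome 1, 20802966 to 20820312) was at 14.4, 5.81 and 29.7 in wild-type imiquimod and at 0, 2.82 and 0 in wild-type sham (log2 fold change 3.24 ± 1.36, limma adjusted p = 0.153). The NF-kB1-deficient values were 0, 0 and 1.89 under sham against 9.30, 2.10 and 4.54 when treated (1.98 ± 1.36, adjusted p = 0.996). For Mcm3 the imiquimod and sham values did not overlap in either genotype. Mcm6 (chromosome 1, 128331575 to 128359705) was at 32.0, 1.05 and 29.7 in wild-type imiquimod and at 0, 1.46 and 0 in sham, where replicate 2 of the treated group lay within the sham range (3.24 ± 1.33, adjusted p = 0.146). This wild-type difference was called with a pseudocount of 10 (limma adjusted p = 0.0449) and without wild-type imiquimod replicate 2 (0.041). NF-kB1-deficient cells had Mcm6 at 0, 1.09 and 6.29 (sham) and at 9.01, 1.05 and 9.08 (treated).

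Mcm5 (chromosome 8, 75109468 to 75128439) had the widest spread of the tested members, at 27.3, 5.26 and 67.3 in wild-type imiquimod and at 7.83, 1.95 and 3.73 in wild-type sham (log2 fold change 2.21 ± 1.31, limma adjusted p = 0.344). It was listed at 0 in all 3 NF-kB1-deficient sham libraries and was at 14.5, 0 and 0 in NF-kB1-deficient imiquimod. Under sham cream Mcm5 and Mcm7 thus lay in opposite order between genotypes. Mcm5 was present in all 3 wild-type libraries and in 0 of 3 NF-kB1-deficient libraries, and Mcm7 in 0 and 3. Neither difference was called (adjusted p = 0.908 for Mcm5 and 0.809 for Mcm7), and 1.95% (lower) and 1.56% (higher) of the 9732 genes had groups apart in that comparison. Among the 1571 tested genes these shares were 4.65% and 4.71%. Mcm2, the remaining subunit, was under the filter and lay between 0 and 8.43 in every library.

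Of the loading factors, Cdt1 (chromosome 8, 122568015 to 122573130) was above 0 in all 12 libraries. It was at 1.12, 5.86 and 15.5 in wild-type sham, 25.2, 1.05 and 25.7 in wild-type imiquimod, 5.15, 19.7 and 10.1 in NF-kB1-deficient sham and 1.502, 5.59 and 10.4 in NF-kB1-deficient imiquimod. All of its group pairs overlapped (wild-type log2 fold change 0.86 ± 1.08, limma adjusted p = 0.708). Cdt1 lies inside the read-through gene model Gm20388 on the same strand. Cdc6 was under the filter and above 0 in only 2 libraries, wild-type imiquimod replicates 1 and 2, at 21.0 and 12.6. Cdc45, which joins the helicase with GINS, was at 1.05, 6.32 and 7.92 in wild-type imiquimod, at 5.01 in NF-kB1-deficient imiquimod replicate 1 and listed at 0 in the other 8 libraries. Gins2 was at 1.22 in wild-type sham replicate 2 and listed at 0 elsewhere.

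The clamp Pcna (chromosome 2, 132249286 to 132253180) was at 11.4, 12.1 and 21.1 in wild-type imiquimod and at 0, 2.30 and 0 in wild-type sham (log2 fold change 3.36 ± 1.31, limma adjusted p = 0.129). Values in NF-kB1-deficient cells were 1.37, 0 and 2.31 under sham and 3.41, 3.07 and 8.21 when treated (1.46 ± 1.31, adjusted p = 0.996). As for Mcm3, the treated values lay above the sham values in both genotypes without a call. None of the 9 Pcna values above 0 was a whole number of reads (within 0.02 read), while 133 of all 178 member values above 0 were, so its reads may be shared with a near-identical copy and its values are uncertain. In all, 15 members had a value that was not whole. Among them were Mcm3 (5 of 8 values above 0), Dnmt1 (5 of 11) and Mcm7 (3 of 8), and the same doubt holds for those values. Lig1, Mcm5 and Dut had only whole ones. The clamp loader subunit Rfc1 was at 8.91, 7.90 and 5.94 in wild-type imiquimod and at 8.94, 2.93 and 0 in wild-type sham, and overlapped in every comparison. Rfc2, Rfc3, Rfc4 and Rfc5 were each above 0 in at most 2 libraries, the highest value being 15.7 for Rfc2 in wild-type imiquimod replicate 1.

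**Figure D3:**
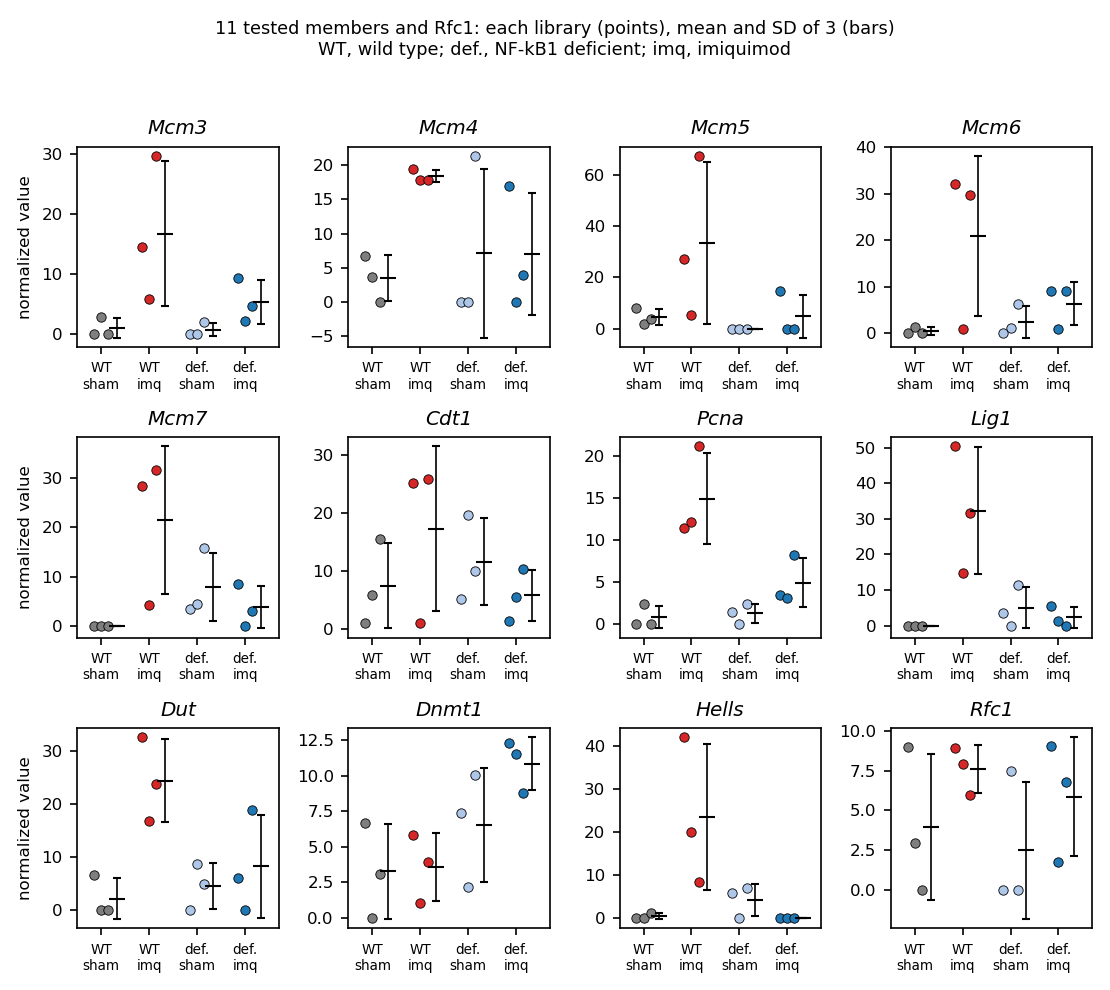
Points give the normalized value (linear scale) of each library for the 11 tested members and for Rfc1, which lay just outside the filter, and bars give the mean and SD of 3 libraries. Lig1, Pcna and Hells have all 3 wild-type imiquimod points above the 9 others. Dnmt1 has its highest mean in the NF-kB1-deficient imiquimod libraries (8.76 to 12.3), which overlap NF-kB1-deficient sham (up to 10.1).

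Polymerase and primase genes gave little signal. Pola1, the catalytic subunit of the priming polymerase, was at 24.1, 12.6 and 0 in wild-type imiquimod, 1.12, 0 and 0 in wild-type sham, 0, 6.57 and 0 in NF-kB1-deficient sham and 3.25, 2.79 and 1.62 in NF-kB1-deficient imiquimod. The delta polymerase genes Pold1 and Pold2 reached at most 1.26 and 7.27, and the primase gene Prim1 at most 1.30. The genes of Rpa, the protein that coats single-stranded DNA, did not share the order seen for the helicase. Rpa1 was at 1.12, 2.44 and 1.24 in wild-type sham and at 1.05, 0 and 0 in wild-type imiquimod, and Rpa2 had its highest value, 21.2, in wild-type sham replicate 1. Each of the Rpa1 values 1.05, 1.12 and 1.24 was an estimated 1 read, so its order is uncertain. Rpa3 was above 0 in 2 NF-kB1-deficient imiquimod libraries (1.001 and 1.30).

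In nucleotide supply, Dut (chromosome 2, 125247248 to 125259049), the enzyme that keeps uracil out of DNA, was at 32.5, 16.8 and 23.8 in wild-type imiquimod and at 6.71, 0 and 0 in wild-type sham. These groups did not overlap, and limma gave a log2 fold change of 3.64 ± 1.18 (adjusted p = 0.0673, but called with a pseudocount of 10 and without wild-type sham replicate 1). NF-kB1-deficient cells gave Dut values of 0, 8.76 and 5.03 under sham and 6.01, 0 and 18.8 when treated (0.41 ± 1.18, adjusted p = 0.996). Both ribonucleotide reductase genes were under the filter. Rrm1 was at 5.24, 17.9 and 0 and Rrm2 at 8.38, 9.47 and 0 in wild-type imiquimod, and in the other 9 libraries they reached at most 4.51 and 10.01, both in NF-kB1-deficient imiquimod replicate 1.

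The chromatin members split. Hells (chromosome 19, 38930262 to 38970470), a remodeller needed for DNA methylation, was at 41.9, 20.001 and 8.36 in wild-type imiquimod and at 0, 0 and 1.24 in wild-type sham (log2 fold change 3.96 ± 1.43, limma adjusted p = 0.103). Hells passed the filter only through the wild-type imiquimod libraries (mean 1.56 over the other 9). It was called with a pseudocount of 10 (limma adjusted p = 0.017) and with plain variance shrinkage (0.0469). NF-kB1-deficient sham libraries had 5.88, 0 and 6.88, and all 3 treated libraries of that genotype listed Hells at 0. Dnmt1 (chromosome 9, 20907206 to 20959888), the maintenance DNA methyltransferase, showed no such order. It was at 6.71, 0 and 3.11 in wild-type sham, 5.80, 1.05 and 3.96 in wild-type imiquimod, 7.35, 2.19 and 10.1 in NF-kB1-deficient sham and 12.3, 11.5 and 8.76 in NF-kB1-deficient imiquimod. The wild-type log2 fold change of Dnmt1 was 0.38 ± 1.15 (95% interval -1.90 to 2.66, adjusted p = 0.885). Uhrf1, which guides Dnmt1 to newly copied DNA, was above 0 in 3 libraries and at most 4.19, and the histone chaperone subunit Chaf1a in 5 libraries and at most 5.19.

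In NF-kB1-deficient cells none of the 11 tested members was called for imiquimod against sham by limma (adjusted p = 0.996 for each), 0 had an unadjusted p under 0.05 (3.37% of all tested genes did), and 0% of all 1571 genes were called. The log2 fold changes ran from -1.14 (Mcm7) to 1.98 (Mcm3) among members without a group listed at 0. The 95% intervals are wide, reaching for Lig1 from -3.20 to 1.94 and for Pcna from -1.12 to 4.05. Of the 32 genes above 0 in a library, 3 (Mcm3, Pcna and Chaf1a, 9.38%) were higher in all treated than in all sham libraries. This held for 3% of the 9732 genes, and 0 members were lower. Among the 1571 tested genes 6.11% were higher in this way. For Chaf1a, 2 treated values (1.0015 and 1.05) lay just above the floor of 1, with sham listed at 0. The nearest Mcm3 values were 2.10 (treated) and 1.89 (sham), so both orders are uncertain.

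Under sham cream the genotypes gave 0 called members by limma, with 1 (Mcm7) at an unadjusted p under 0.05 (6.11% of all tested genes), and 0% of all tested genes were called. Of the 32 genes above 0 in a library, means were higher in NF-kB1-deficient cells for 15 (46.9%) and lower for 10 (31.2%). Of the 9732 genes 41.8% and 40.8% were higher and lower. The summed value was 1.38 times as high in NF-kB1-deficient as in wild-type cells, but the groups overlapped. Without NF-kB1-deficient sham replicate 3 the ratio was 0.957, so its direction rests on that library, and without wild-type sham replicate 1 it was 2.30.

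Under imiquimod cream 0 of the 11 members were called between genotypes by limma, where 1.78% of all tested genes were, and 3 (Hells, Lig1 and Mcm5) had an unadjusted p under 0.05 (14.3% of all genes). Lig1 was lower in NF-kB1-deficient cells by a log2 fold change of -3.57 ± 1.30 (adjusted p = 0.153), Mcm5 by -3.20 ± 1.31 (0.219) and Mcm4 by -2.12 ± 1.21 (0.429). Hells, listed at 0 in that group, had an adjusted p of 0.101 and was called without wild-type imiquimod replicate 3 (0.0261 to 0.361 over all settings). Both Hells and Lig1 were called with a pseudocount of 10. Of the 32 genes above 0 in a library, means were higher in NF-kB1-deficient cells for 6 (18.8%) and lower for 24 (75%). Of the 9732 genes 46% and 37.9% were higher and lower. Over the 36 genes, Mcm4, Pcna, Lig1 and Hells lay lower in all NF-kB1-deficient imiquimod libraries than in all wild-type ones (2.44% of the 9732 genes did), and Dnmt1 lay higher (4.27%; log2 fold change 1.52 ± 1.15, adjusted p = 0.598). Among the 1571 tested genes, to which these members belong, 10.3% lay lower and 10.8% higher in this way.

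**Figure D4:**
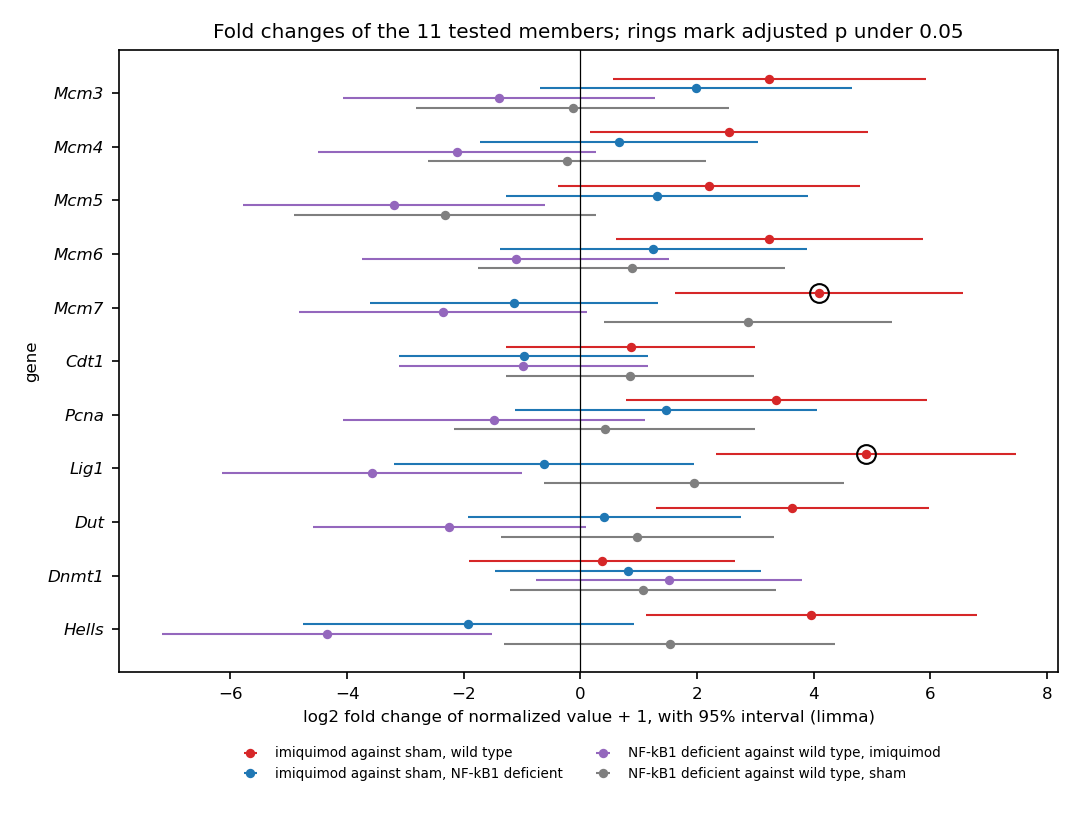
Points and lines give the log2 fold change of (normalized value + 1) with its 95% interval from limma for the 11 tested members in 4 comparisons, and rings mark an adjusted p under 0.05. The rings fall on Lig1 and Mcm7 for imiquimod against sham in wild-type cells. Where a group was listed at 0 (Lig1 and Mcm7 in wild-type sham, Mcm5 in NF-kB1-deficient sham, Hells in NF-kB1-deficient imiquimod) the fitted fold depends on the pseudocount.

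The difference between both responses to imiquimod was tested directly as an interaction, and 0 of 11 members were called by limma, where 0.446% of all tested genes were. An unadjusted p under 0.05 was reached by Lig1 (0.00312; adjusted p = 0.215), Mcm7 (0.00354; 0.215) and Hells (0.00433; 0.252), against 10.8% of all genes. Their adjusted p over the other settings ran from 0.0548 to 0.758 for Lig1, 0.0960 to 0.758 for Mcm7 and 0.0890 to 0.758 for Hells. For Pcna the interaction was -1.90 ± 1.85 and for Mcm3 -1.26 ± 1.92, with 95% intervals that span 0. The larger response in wild-type cells was therefore not shown by test for any single member.

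Other genes of the same processes were followed through lists set apart from the 36 members. Of 40 further genes of the replication machinery 5 were tested and 0 called in wild-type cells. The clamp-associated gene Pclaf was at 75.5, 24.2 and 1.98 in wild-type imiquimod and at 1.12, 2.93 and 0 in sham (limma adjusted p = 0.154), and the topoisomerase gene Top1 at 40.9, 69.5 and 2.93 and at 30.2, 22.5 and 4.97 (adjusted p = 0.785). The list's sum in wild-type imiquimod was 219, 192 and 81.2, against 71.0, 73.4 and 26.1 in wild-type sham. Of 20 further nucleotide genes 4 were tested and 1 called, the nucleoside diphosphate kinase gene Nme1, listed at 0 in wild-type sham and at 34.6, 14.7 and 5.94 under imiquimod (adjusted p = 0.0358). Of 11 further chromatin genes 5 were tested and 0 called. Among these, Ssrp1 (log2 fold change -0.82 ± 1.14, limma adjusted p = 0.742), Rbbp7 (2.19 ± 1.17, 0.282) and Supt16 (0.80 ± 1.15, 0.755) overlapped between wild-type groups. Rbbp4, a histone-binding subunit shared by several complexes, did not overlap between wild-type groups, at 41.4, 47.4 and 58.4 against 16.2, 11.7 and 17.4 (log2 fold change 1.64 ± 0.62, adjusted p = 0.115), nor did the histone chaperone gene Nasp (16.8, 5.26 and 23.8 against 0, 2.44 and 0; 0.104).

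Genes that act later in the cycle and regulators of the G1 to S step were summed in the same way. The 38 mitosis genes summed to 260, 248 and 356 in wild-type imiquimod, 67.6, 94.8 and 111 in wild-type sham, 130, 65.7 and 77.4 in NF-kB1-deficient sham and 127, 113 and 157 in NF-kB1-deficient imiquimod. Of 6 tested mitosis genes 3 were called in wild-type cells, all higher: Birc5, Top2a and the kinase-binding gene Cks1b (0, 3.80 and 0 in sham and 6.81, 45.8 and 36.6 in imiquimod; limma adjusted p = 0.0423). These 3 passed the filter only through the wild-type imiquimod libraries (their means over the other 9 were 1.56, 4.34 and 4.15), so the count is a description, beside 3.25% of all tested genes called. Smc4, a condensin subunit, had the opposite sign (-0.99 ± 0.40, adjusted p = 0.139). It alone gave 47.0, 79.3 and 104 of the wild-type sham sums and 30.8, 26.0 and 59.6 of the wild-type imiquimod sums. In NF-kB1-deficient cells Smc4 gave 119, 48.2 and 45.9 under sham and 61.2, 93.5 and 89.8 under imiquimod. The sums outside wild-type imiquimod are thus mostly this 1 gene. Of the 23 G1 to S regulators 4 were tested and 0 called. Their sums overlapped across all 4 groups, with means of 86.2, 98.6, 79.3 and 80.0 in wild-type sham, wild-type imiquimod, NF-kB1-deficient sham and NF-kB1-deficient imiquimod. Cyclin gene Ccnd2 was lower in wild-type imiquimod (9.43, 2.11 and 12.9) than in sham (28.0, 36.2 and 16.8) without a call (adjusted p = 0.165). Cdk6 had the opposite sign, at 14.7, 17.9 and 53.5 against 17.9, 22.5 and 5.0 (log2 fold change 0.87 ± 0.73, limma adjusted p = 0.531). Ccnd3 and Cdkn1b gave -0.19 ± 1.01 (0.935) and -1.65 ± 1.15 (0.447). Cdk6, Ccnd3 and Cdkn1b overlapped between wild-type groups.

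**Figure D5:**
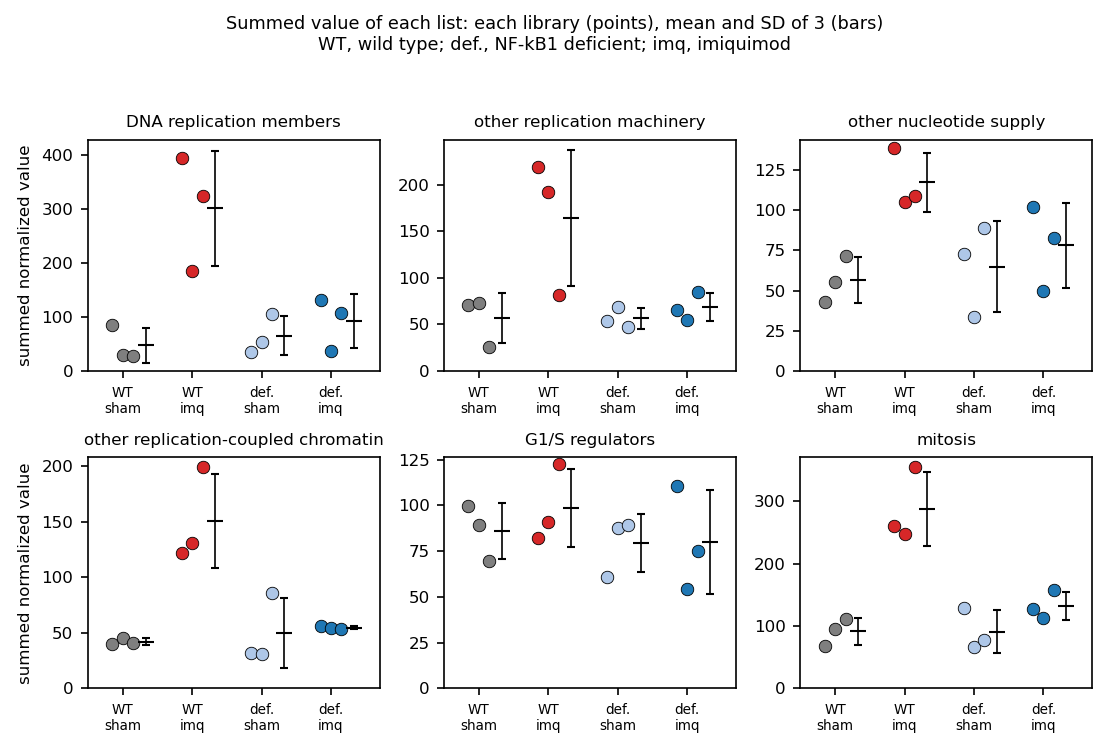
Points give the summed normalized value (linear scale) of 6 lists in each library and bars the mean and SD of 3 libraries. The members, the further nucleotide and chromatin genes and the mitosis genes have all 3 wild-type imiquimod points above the other 9, while the further replication machinery (81.2 in wild-type imiquimod replicate 3, 84.4 in NF-kB1-deficient imiquimod replicate 3) and the G1 to S regulators overlap.

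Markers of other cells were set beside these values. All 10 B cell markers and all 9 neutrophil markers were listed at 0 in every library. The 8 plasma cell markers in the table summed to 23.8, 22.1 and 6.93 in wild-type imiquimod, 0, 2.93 and 6.21 in wild-type sham, 0 in each NF-kB1-deficient sham library and 2.25, 4.89 and 21.7 in NF-kB1-deficient imiquimod. In the wild-type imiquimod libraries the defining plasma cell genes Jchain and Mzb1 were listed at 0, while Xbp1 was at 14.7, 6.32 and 0, Prdm1 at 6.81, 8.42 and 6.93 and Irf4 at 2.27, 6.32 and 0. Prdm1 and Irf4 were listed at 0 in every sham library. Markers of germinal centre B cells were listed at 0 in the wild-type imiquimod libraries. Erythroid markers summed to 50.6 in NF-kB1-deficient imiquimod replicate 3 and to at most 4.76 elsewhere. Macrophage, monocyte and dendritic cell markers gave 14.5, 14.9 and 7.45 in wild-type sham, mostly Ccr2 (14.5, 12.9 and 6.21), and at most 5.765 elsewhere. NK cell markers reached at most 10.5, and keratinocyte and stroma markers at most 21.1 (wild-type sham replicate 3). The part of other cells in the replication values was not tested.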

How the data were processed

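The deposited table gives log2 normalized read counts per gene for 12 libraries, with 0 where a gene has no value, and mm10 is the build per the submitters' processing notes. Per the labels' protocols, RNA was taken with Trizol and libraries were made with the QuantSeq 3' mRNA-Seq kit (FWD), which reads transcript ends, so values do not scale with gene length. The sources used here do not name the aligner, the counter or the normalization. Values were returned to the linear scale, and the worth of 1 read was estimated from the steps between low values (71.2% to 80.25% of low values were whole reads within 0.01 read), so read numbers are estimates.

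Genes with a mean of at least 5 were tested on log2(value + 1) with limma 3.58.1 in R 4.3.3 (trend and robust options, all 4 groups in 1 fit), after a check on simulated data. Fold changes on this scale understate those of low genes. Files were read with the R package data.table (version 1.17.8). Alternatives were other pseudocounts (0.1 and 10), no filter or a minimum of 20, equal totals, plain variance shrinkage, a replicate block, the 6 libraries alone and each library left out. Setting values under 2 to 0 was chosen after seeing the data.

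The members and lists were chosen with earlier results of these data known. All members are accounted for. From the other lists, genes called in a comparison are named, or otherwise tested genes with the highest means. All tested genes of the further chromatin list and of the G1 to S regulators are named. Smc4 was named after its values were seen. The labels do not tie replicates to separate animals. The p-values therefore cover only variation among these libraries, and that may be technical.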

Additional observations from a re-analysis of the deposited data

How the results depend on the processing

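The number of members called for imiquimod against sham in wild-type cells (2) was 0 with a pseudocount of 0.1 and with no filter, 5 with a pseudocount of 10, and 1 with equal totals, with values under 2 set to 0 and with the 6 libraries alone. It was 0 to 3 with a library left out: 0 without wild-type imiquimod replicate 1, 3 without replicate 2 of that group, and 1 without wild-type sham replicate 2 or 3, NF-kB1-deficient sham replicate 3, wild-type imiquimod replicate 3, or NF-kB1-deficient imiquimod replicate 1 or 3. Between genotypes under imiquimod (0 called) it was 2 with a pseudocount of 10 and 0 to 1 with a library left out. The cause was not tested. Over all genes the wild-type count of 51 was 26, 72, 11, 48, 18 and 28 with a pseudocount of 0.1, a pseudocount of 10, no filter, equal totals, plain shrinkage and the 6 libraries alone. Of 1089 results for single members under alternatives, 1043 kept direction and side of the threshold and 20 turned direction, all in values that were not called. With a pseudocount of 10 Mcm4 between genotypes under sham was 0.15, and with 0.1 the Dnmt1 interaction was -0.26. With a library left out the log2 fold change of Dnmt1 in wild-type cells ran from -0.45 to 1.02. In NF-kB1-deficient cells those of Lig1, Dut and Mcm4 ran from -1.60 to 0.21, -0.57 to 1.60 and -0.35 to 2.15. Between genotypes under sham those of Mcm4 and Mcm3 ran from -1.72 to 0.52 and -0.64 to 0.51, the Dnmt1 interaction from -0.20 to 1.27, and the ratio of sums from 0.957 to 2.30. The ratio of sums in wild-type cells ran from 5.26 to 10.6, and in NF-kB1-deficient cells from 1.11 to 2.04. Same-numbered samples did not deviate together (18 pairs, correlations -0.00983 to 0.0609), and the fit with a replicate block called 55 genes in wild-type cells and 2 members, as before. With a minimum mean of 20 no member was tested. The median 95% half-width over all 1571 tested genes was 2.21 on the log2 scale, and what depth adds to it was not tested.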

Other observations

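The 3 wild-type imiquimod libraries differed among themselves by gene. Replicate 2 was low for Mcm5 (5.26), Mcm6 (1.05), Mcm7 (4.21) and Cdt1 (1.05) beside replicates 1 and 3, which had 27.3 and 67.3, 32.0 and 29.7, 28.3 and 31.7, and 25.2 and 25.7. For Mcm4 (17.9 beside 19.4 and 17.8) and Pcna (12.1 beside 11.4 and 21.1) it was not low in this way, and its Rrm1 value (17.9) was the highest of the 12 libraries. Replicate 3, where 1 read was worth 1.98, was listed at 0 for Cdc6, Pola1, Rrm1 and Rrm2.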
